A study of Arabidopsis thaliana with 9 samples.

Results

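The transcriptome of ntrc mutant seedlings of Arabidopsis thaliana was set against that of wild type (Col-0) seedlings across all expressed genes. Of the 9 libraries of the series 6 entered this comparison, 3 of ntrc and 3 of wild type, and 18818 of the 32833 loci in the deposited table were tested, namely those with at least 1 FPKM (fragments scaled by transcript length and by library size) in at least 3 of the 6 libraries. Both genotypes were grown for 6 days on MS, a mineral salt medium, in continuous light at 125 µE per square metre and second, and whole seedlings were collected. They differed, per the labels, in genotype alone, and the sources used here do not name the ntrc allele. The series asks how the loss of NTRC bears on iron homeostasis. Genes on lists of iron and other metals, light-harvesting antenna and flavonoid synthesis were left out when genes were chosen for description, so that the rest of the transcriptome could be described.

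NTRC is a chloroplast protein whose single chain holds both a thioredoxin reductase fed by NADPH and a thioredoxin of its own. It passes electrons from NADPH to disulfides of target proteins, among them the 2-Cys peroxiredoxins that remove hydrogen peroxide, and to enzymes of tetrapyrrole and starch synthesis. Plants without it are known to be pale and to grow slowly, and they tolerate changing light poorly.

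The 3 libraries of each genotype are described in the labels as biological replicates. Between 18539 and 18829 loci reached 1 FPKM in each seedling library, and all 6 shared an upper quartile of 3.7, so the values had been brought to 1 scale before deposit. The depth of sequencing is unknown without counts, and precision therefore rests on the spread of 3 libraries. Levels below are log2(FPKM + 1), and a difference is the mean of ntrc minus the mean of wild type on that scale, which understates the change of weakly expressed genes. In whole seedlings, fewer cells of a type and less RNA per cell cannot be told apart.

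With libraries treated as unpaired, 1 gene rose and 4 fell in ntrc (0.00531% and 0.0213% of the genes tested, 0.0266% together; limma with Benjamini-Hochberg adjustment below 0.05). At an unadjusted p below 0.05 there were 943 genes (5.01%), 631 genes with higher and 312 with lower means in ntrc (3.35% and 1.66%). Libraries of equal number deviated together in the 2 genotypes, so each ntrc library and the wild type library of its number are treated as a pair below. Once the library number entered the fit as a block, the calls came to 30 rising and 43 falling genes (0.159% and 0.229%, or 0.388% together). In that fit 2185 genes had an unadjusted p below 0.05 (11.6%), 1376 genes with higher and 809 with lower means (7.31% and 4.3%). Differences were small across the transcriptome: 18122 genes differed by less than 0.5, 545 by 0.5 to 1, 133 by 1 to 2 and 18 by 2 or more. In all, 151 genes differed by at least 1 (0.802%), and of those that differed by 1 to 2, 42 were higher and 91 lower in ntrc, and of those above 2, 4 were higher and 14 lower. Means were higher in ntrc for 9644 genes (51.2%), the median difference was 0.00, and 6376 genes (33.9%) differed in the same direction in all 3 pairs, 3519 higher and 2857 lower (18.7% and 15.2%). The 2 genotypes did not overlap at all for 1837 genes (9.76%).

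**Figure D1:**
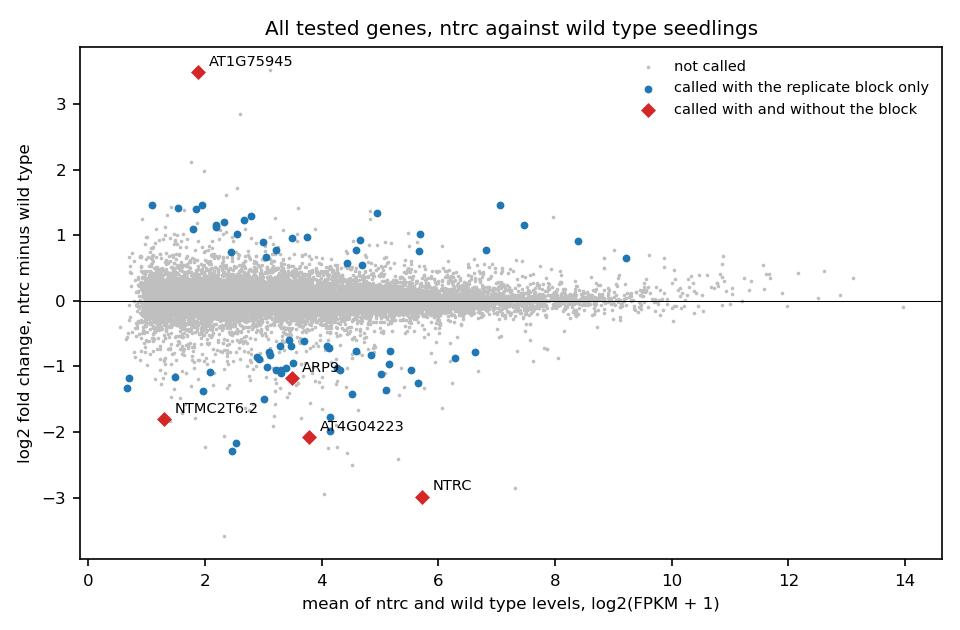
Each point is 1 of the 18818 tested genes; the horizontal axis is the mean level of both genotypes as log2(FPKM + 1) and the vertical axis the log2 fold change, ntrc minus wild type. Red diamonds mark the 5 genes called without the block, blue points those called with it, and grey points the rest, most of which lie within 0.5 of the line at 0.

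The targeted gene came first among the 5 genes called without the block. NTRC (AT2G41680) stood at 4.12, 4.36 and 4.2 in ntrc, against 7.03, 7.46 and 7.15 in wild type, and fell by 2.98 (SE 0.13; limma adjusted p = 0.000588 without and 6.95e-05 with the block). Its transcript was thus reduced in every ntrc library but still measurable. AT1G75945, which encodes an uncharacterized protein, was the one gene that rose: its levels were 3.36, 3.66 and 3.86 in ntrc, against 0.00, 0.00 and 0.42 in wild type (difference 3.48, SE 0.18; limma adjusted p = 0.000883 without and 0.000166 with the block). That is 9.24, 11.7 and 13.5 FPKM in ntrc, while 2 wild type libraries list the gene at 0 and the other at 0.337 FPKM. A listed 0 can be a failed estimate, so the size of the difference is uncertain. The gene passed the expression filter through the ntrc libraries alone.

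NTMC2T6.2 (AT3G14590), a lipid-binding protein with a calcium-dependent C2 domain, stood at 0.55, 0.25 and 0.39 in ntrc, against 2.15, 2.05 and 2.41 in wild type. It fell by 1.80 (SE 0.15; limma adjusted p = 0.0148), and it passed the filter through the wild type libraries alone. ARP9 (AT5G43500), an actin-related protein, fell by 1.18 (SE 0.09; limma adjusted p = 0.0148), with 2.90, 2.80 and 3.0 in ntrc and 4.04, 4.19 and 4.01 in wild type. The non-coding locus AT4G04223 fell by 2.08 (SE 0.19; limma adjusted p = 0.0427), with 2.83, 2.3 and 3.1 in ntrc and 4.93, 4.73 and 4.82 in wild type. For these 3 genes the gap between the genotypes was wider than the range within either of them.

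Loci near the mutated gene were evenly divided by direction. Of the 40 tested loci nearest to NTRC in annotation order, 20 on each side, 20 were higher and 20 lower in ntrc, with a median difference of 0.00. By limma none was called without the block and 1 with it, and 5 had an unadjusted p below 0.05 with it. That locus was PGAZAT (AT2G41850), 16 tested loci after NTRC, which encodes a polygalacturonase, an enzyme that cuts pectin where cells separate; it is described with the rising genes.

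With the block, 63 genes outside the lists set aside were called, 22 rising and 41 falling. The 58 that were not among the 5 above did not pass without the block, where their limma adjusted p ran between 0.0934 and 0.957. On the lists set aside, 10 of 127 tested members were called, against 73 of all 18818 tested genes (0.388%). Levels of most called genes followed the library number. A call with the block favours genes with a large shift shared by libraries of 1 number, so the shares below partly follow from it. Among the 41 falling genes, library 1 was the highest of its genotype in both ntrc and wild type for 34 (82.9%), against 3093 of all tested genes (16.4%). Among the 22 rising genes, library 3 was the highest in both genotypes for 18 (81.8%), against 2829 of all tested genes (15.03%). All 34 were among the 37 falling genes called with the block only, and 17 of the 18 among the 21 such rising genes. The larger of a gene's 2 ranges within a genotype had a median of 2.07 for the falling and 0.97 for the rising genes. The median size of the difference was 1.05 and 1.02. Over all tested genes these medians were 0.34 for the range and 0.09 for the difference. That range was above the difference for 32 of the 41 falling and 6 of the 22 rising genes, and for 17953 of all 18818. The sources used here do not say what libraries of 1 number shared, and its part in the results was not tested.

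**Figure D2:**
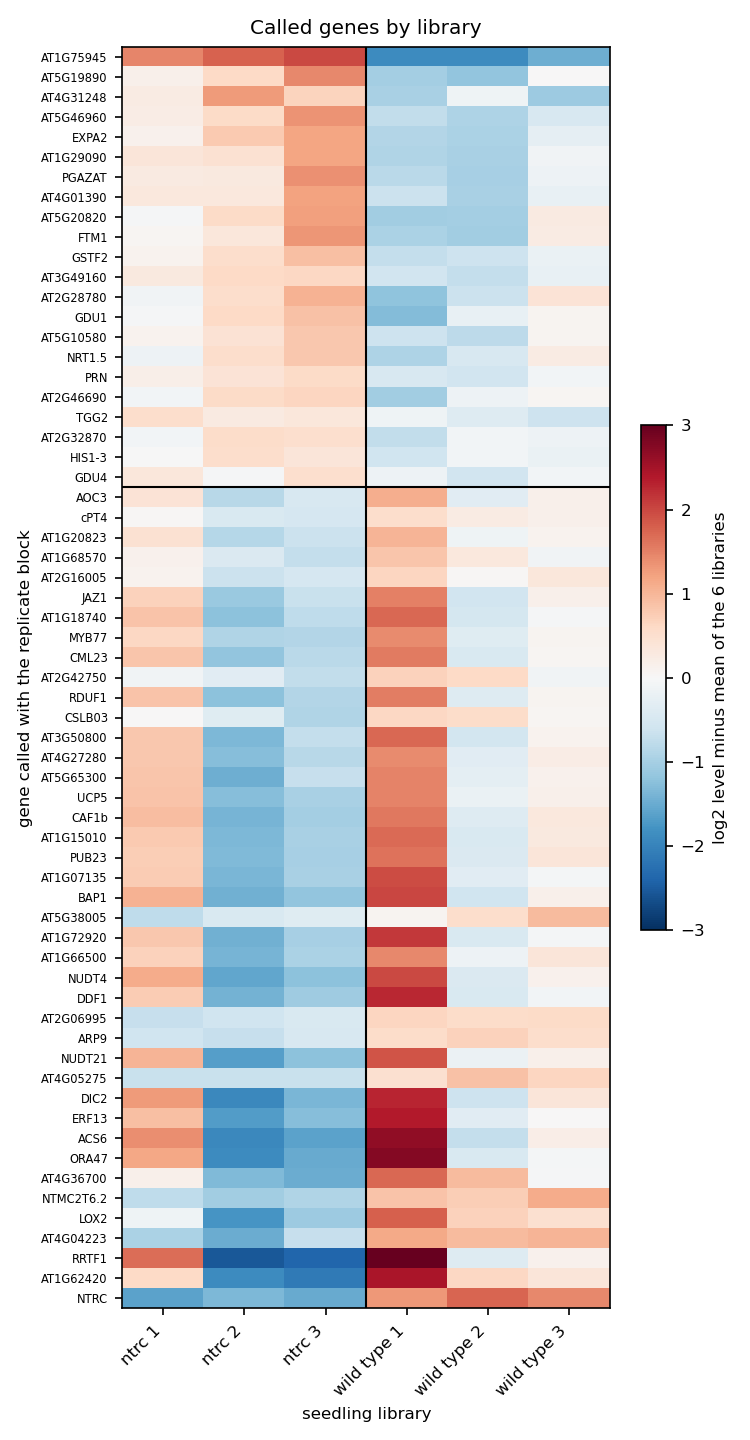
Each cell shows the log2 level of 1 gene in 1 seedling library minus the mean of the 6 libraries, with ntrc libraries on the left and wild type on the right, for the 22 rising genes (above the line) and 41 falling genes (below it) called with the block. Most falling genes are high in library 1 of both genotypes, whereas NTRC, ARP9, NTMC2T6.2 and AT4G04223 are low in all 3 ntrc libraries.

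The falling genes are described by role, transcription factors first. RRTF1 (AT4G34410), an ethylene response factor (ERF) induced by redox imbalance, stood at 4.21, 0.00 and 0.15 in ntrc, against 6.02, 2.15 and 2.67 in wild type, and fell by 2.16 (limma adjusted p with the block 0.0064, without it 0.947). With a pseudocount of 0.1 in place of 1, where the listed 0 weighs more, its blocked adjusted p by limma was 0.278. The ntrc library was the lower one in each pair, yet the genotypes overlapped, since library 1 of ntrc was above libraries 2 and 3 of wild type. ORA47 (AT1G74930), an ERF that activates jasmonate synthesis genes, had 4.16, 1.12 and 1.48 in ntrc, against 5.77, 2.54 and 2.94 in wild type. It fell by 1.49 (limma adjusted p with the block 0.00371) and was called in each of the 6 other blocked settings, including those that left out 1 pair. ERF13, DDF1 and MYB77, 3 more transcription factors, fell by 1.37, 1.15 and 0.77 with the same order of libraries.

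ACS6 (AT4G11280), which makes the ethylene precursor ACC, had 5.91, 2.59 and 2.91 in ntrc, against 7.18, 3.8 and 4.71 in wild type, and fell by 1.43 (limma adjusted p with the block 0.0199). DIC2 (AT4G24570), a dicarboxylate carrier of the inner mitochondrial membrane, had 6.38, 3.15 and 3.72 in ntrc, against 7.38, 4.48 and 5.47 in wild type, and fell by 1.36 (limma adjusted p with the block 0.0337). Both genes overlapped between genotypes in the same way as RRTF1. A second carrier of the same family, UCP5, fell by 0.95. NUDT21 and NUDT4, hydrolases of nucleoside diphosphate derivatives, fell by 1.25 and 1.11, and BAP1, a membrane-associated suppressor of cell death, by 1.05.

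Regulators of protein and mRNA turnover were also among them. PUB23, a U-box ubiquitin ligase that dampens immune responses, fell by 1.05, the RING-type ligase RDUF1 by 0.82, and CAF1b, a subunit of the complex that shortens poly(A) tails, by 1.01. The calcium-binding proteins CML23 and AT4G27280 fell by 0.78 and 0.86, and AT1G07135, a glycine-rich protein, by 1.05. The last of these was called in every blocked setting (limma adjusted p 0.00987 with the block, at most 0.0466 in the others), with 6.29, 4.16 and 4.55 in ntrc, against 7.49, 5.19 and 5.47 in wild type.

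Enzymes and regulators of the jasmonate pathway appear among the called genes as well, a grouping made after their values were seen. LOX2 (AT3G45140), the plastid lipoxygenase that starts jasmonate synthesis, had 4.01, 2.37 and 3.06 in ntrc, against 5.93, 4.84 and 4.62 in wild type, and fell by 1.99 (limma adjusted p with the block 0.0312). Its genotypes did not overlap. AOC3, an allene oxide cyclase that acts later in the same pathway, fell by 0.60, and JAZ1, a repressor of jasmonate responses, by 0.72, both with overlapping genotypes.

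Among the 34 falling genes with library 1 highest in both genotypes were also AT1G62420, a DUF506 protein, and AT4G36700, a cupin, which fell by 2.29 and 1.76. AT1G62420 stood at 3.05, 0.56 and 0.33 in ntrc, against 4.90, 3.08 and 2.83 in wild type, and its blocked adjusted p by limma was 0.0064, or 0.125 with a pseudocount of 0.1. The smaller changes in this group, with differences between -1.09 and -0.62, were those of cPT4 (a cis-prenyltransferase), CSLB03 (a cellulose synthase-like protein), AT2G42750 (a DnaJ domain protein), AT1G68570 (a major facilitator transporter), AT1G20823 (a RING protein), AT1G72920 (a TIR domain protein), AT1G66500 (annotated as part of a pre-mRNA cleavage complex), AT1G15010, AT2G16005 (a lipid-recognition domain protein), AT1G18740, AT3G50800 and AT5G65300. The genotypes did not overlap for 3 of the 34, LOX2, CSLB03 and cPT4, against 1837 of all 18818 tested genes (9.76%).

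The other 7 falling genes showed no such order of libraries. Their genotypes lay apart, which for NTMC2T6.2, AT4G05275 and AT2G06995 follows from the expression filter, since they passed it through the wild type libraries alone. Beside NTRC, AT4G04223, NTMC2T6.2 and ARP9 they were the non-coding loci AT4G05275, AT2G06995 and AT5G38005. AT4G05275 was listed at 0 in all 3 ntrc libraries and stood at 1.14, 1.54 and 1.3 in wild type (limma adjusted p with the block 0.0337). AT2G06995 had 0.00, 0.08 and 0.23 in ntrc, against 1.33, 1.23 and 1.26 in wild type (limma adjusted p with the block 0.0407). AT5G38005 had 2.54, 2.85 and 2.95 in ntrc, against 3.40, 3.84 and 4.26 in wild type, and fell by 1.05. The larger of a gene's 2 ranges within a genotype had a median of 0.39 for these 7 genes and 2.14 for the other 34. The split was made after the values were seen and by the order of libraries, so it bears on these ranges itself. For NTMC2T6.2, AT4G05275 and AT2G06995, levels below 1 FPKM in ntrc also limit the range there. No conclusion is drawn from these 2 medians.

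**Figure D3:**
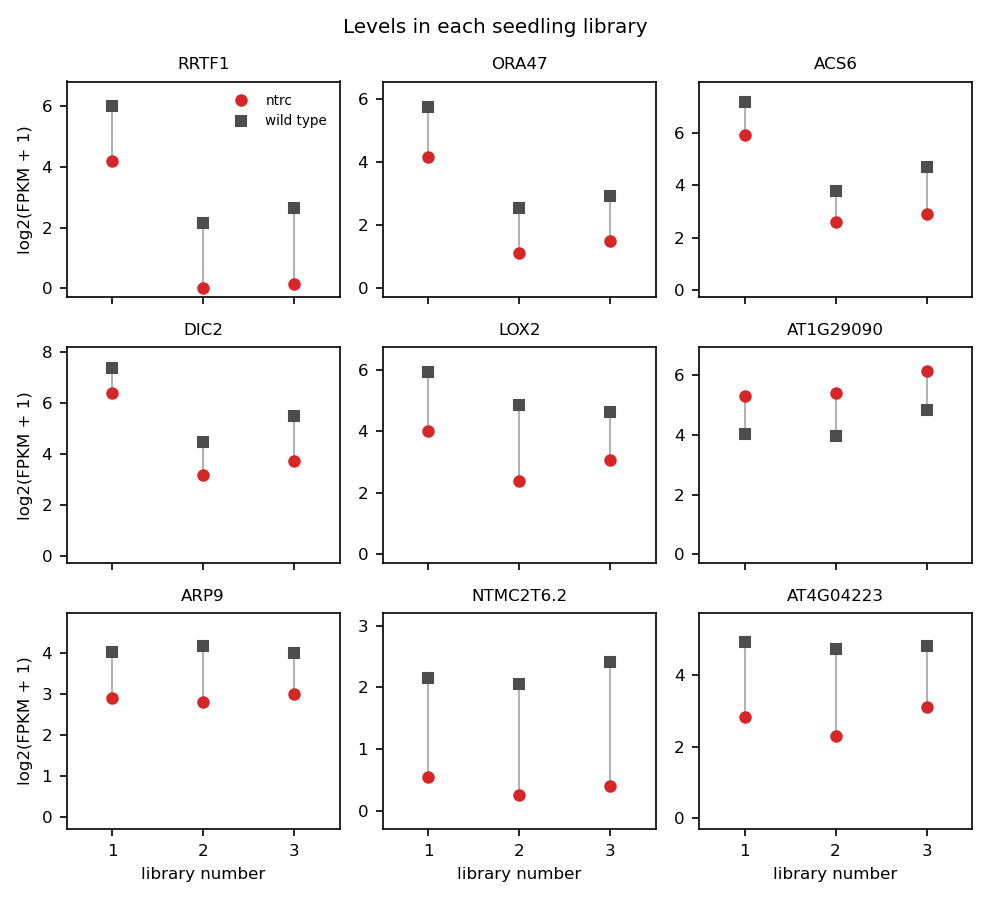
Levels of 9 called genes as log2(FPKM + 1) by library number, with red circles for ntrc, grey squares for wild type and a line joining libraries of equal number. RRTF1, ORA47, ACS6, DIC2 and LOX2 are highest in library 1 of both genotypes, and AT1G29090 is highest in library 3 of both. ARP9 and NTMC2T6.2 vary little across numbers, as does AT4G04223 in wild type, while AT4G04223 ranges from 2.3 to 3.1 in ntrc.

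The rising genes are described in the same way, after AT1G75945. AT1G29090, a papain-type cysteine proteinase, had 5.31, 5.41 and 6.13 in ntrc, against 4.04, 3.98 and 4.83 in wild type, and rose by 1.33 (limma adjusted p with the block 0.00371). PGAZAT, the polygalacturonase near NTRC, had 3.06, 3.09 and 4.17 in ntrc, against 1.99, 1.80 and 2.64 in wild type, and rose by 1.3 (limma adjusted p with the block 0.0128). In both, every ntrc library was above every wild type library, and these 2 were the rising genes called in all 6 other blocked settings.

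Among genes of the cell wall, EXPA2 (AT5G05290), an expansin that loosens cell walls, had 1.98, 2.65 and 3.03 in ntrc, against 0.97, 0.90 and 1.59 in wild type, and rose by 1.4 (limma adjusted p with the block 0.0294). AT5G19890, a class III peroxidase of the kind secreted to the wall, had 2.1, 2.55 and 3.38 in ntrc, against 0.93, 0.76 and 1.95 in wild type, and rose by 1.47. AT5G46960, an inhibitor of invertase or pectin methylesterase, rose by 1.42. The genotypes did not overlap in any of these 3 genes, which also held for 9.76% of all tested genes.

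Transporters were also called. NRT1.5 (AT1G32450), which loads nitrate into the root xylem, had 6.66, 7.33 and 7.61 in ntrc, against 5.89, 6.33 and 7.05 in wild type, and rose by 0.78 with overlapping genotypes (limma adjusted p with the block 0.0469). The glutamine dumpers GDU1 and GDU4, membrane proteins that promote amino acid export, rose by 0.96 and 0.54. GSTF2, a glutathione transferase, rose by 1.02, with 5.78, 6.21 and 6.6 in ntrc, against 4.96, 5.07 and 5.5 in wild type. It has a near-identical copy, GSTF3, so its value is uncertain.

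TGG2 (AT5G25980), a myrosinase that releases toxic products from glucosinolates, had 6.19, 5.94 and 6.0 in ntrc, against 5.53, 5.28 and 5.03 in wild type, and rose by 0.76. HIS1-3, a linker histone induced by water deficit, rose by 0.57, the pirin PRN by 0.77, the stearoyl-ACP desaturase FTM1 by 1.15 and the pyruvate kinase family gene AT3G49160 by 1.01. The SAUR genes AT5G20820 and AT2G46690, of an auxin-induced family tied to cell expansion, rose by 1.2 and 0.77, and the TRAF-like genes AT4G01390 and AT2G32870 by 1.22 and 0.67. AT2G28780, AT5G10580 and the non-coding locus AT4G31248, which rose by 0.97, 0.90 and 1.46, complete the 22. AT4G31248 passed the filter through the ntrc libraries alone, and it overlaps a protein-coding gene, AT4G31250, whose difference was -0.48. The library kit keeps the strand, but the sources used here do not say whether counting used it, so reads of the pair may not be separable.

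Leaving out a pair reduced these calls. Of the 22 rising genes, 7 were called without pair 1, 2 without pair 2 and 11 without pair 3, and of the 41 falling genes 12, 13 and 24. Some of the rest, AT1G75945, NTMC2T6.2, AT4G31248, AT4G05275 and AT2G06995 in all 3 cases, no longer passed the expression filter. The falling genes called in every blocked setting were NTRC, AT4G04223, ORA47 and AT1G07135.

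Function was then described over 56 gene lists, 35 put together by hand and 21 by annotation text. In 44 of them no member was called with the block, which says little for short lists, since only 0.388% of all tested genes were called. In 38 the median difference lay between -0.1 and 0.1. Medians were positive in 35 and negative in 21, and had the same sign in all 3 pairs in 25. Leaving out 1 library shrank the median by over 1.5 times in 50 lists, or turned its sign, which it did in 23 of these. The values below are descriptions, to be read against the shares of all tested genes. Of these, 51.2% were higher in ntrc, 33.9% had the same direction in 3 pairs and 9.76% had genotypes that did not overlap. With the block, 11.6% had an unadjusted p below 0.05 by limma and 0.388% were called.

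**Figure D4:**
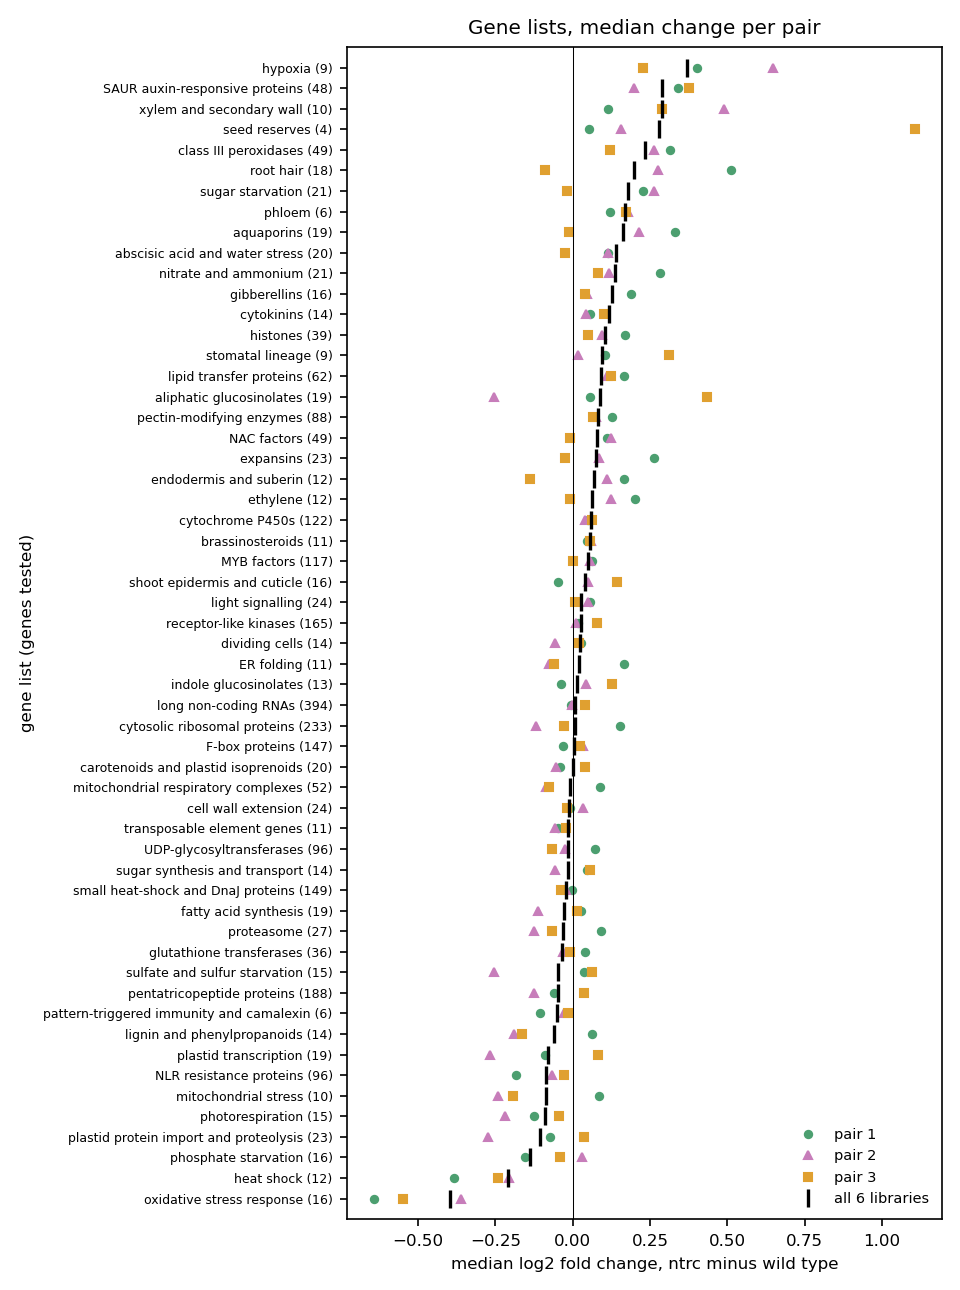
Median log2 fold change, ntrc minus wild type, of each gene list (number of tested genes in brackets), with the median over all 6 libraries as a black bar and the medians of the 3 pairs of equal number as coloured symbols. Hypoxia (0.37), SAUR proteins (0.29), and xylem and secondary wall (0.29) lie to the right in all 3 pairs, and the oxidative stress response (-0.40) and heat shock (-0.21) to the left.

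Hypoxia genes had the highest median of the lists. These are the core genes induced by low oxygen through the group VII ERF factors. Of the 9 tested, 8 had higher means in ntrc, 7 of them in all 3 pairs, and the median difference was 0.37 (0.40, 0.65 and 0.23 in pairs 1 to 3), but none passed the adjusted threshold, with or without the block. With the block, 7 of the higher genes and the 1 lower gene had an unadjusted p below 0.05. HB1, the class 1 phytoglobin that scavenges nitric oxide, came nearest, with 3.12, 2.92 and 3.36 in ntrc, against 2.63, 2.2 and 2.84 in wild type (difference 0.58; limma adjusted p with the block 0.0779). The fermentation genes ADH1 and PDC1 differed by 0.67 and 0.43, LBD41, a LOB domain transcription factor, by 0.62, and the sucrose synthase SUS4 by 0.37. HRA1, which represses part of this response, was the one gene below wild type (-0.29, lower in all 3 pairs). The median was 0.21 without library 2 of wild type and 0.52 without library 3 of wild type.

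Xylem and secondary wall genes, which mark the water-conducting cells, were higher in ntrc for 10 of 10 tested, 8 of them in all 3 pairs, with a median of 0.29 (0.11, 0.49 and 0.29 in the pairs). None passed the adjusted threshold, and 7 had an unadjusted p below 0.05 with the block. XCP1, a xylem cysteine peptidase, had 4.99, 5.15 and 5.41 in ntrc, against 4.79, 4.57 and 5.06 in wild type (0.38; limma adjusted p with the block 0.161). CESA7 and CESA4, subunits of the cellulose synthase of secondary walls, and the laccase LAC4 differed by 0.31, 0.24 and 0.31, each with genotypes that did not overlap. Phloem genes were higher for 5 of 6, with a median of 0.17 and none called (2 with an unadjusted p below 0.05 with the block); SUC2, the sucrose loader of companion cells, differed by 0.27. Without library 1 of wild type the phloem median was 0.11.

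Oxidative stress response genes had the lowest median. Of 16 tested, 15 had lower means in ntrc, 10 of them in all 3 pairs, and the median difference was -0.40 (-0.64, -0.36 and -0.55 in the pairs). RRTF1 and BAP1 fell with the block. The zinc finger factors ZAT12 and ZAT10 differed by -1.10 and -1.39, and OXI1, a kinase activated by hydrogen peroxide, by -0.83, with limma adjusted p of 0.0557, 0.0841 and 0.0688 with the block. ZAT12 had 6.08, 3.43 and 4.08 in ntrc, against 6.75, 4.76 and 5.37 in wild type, so library 1 was again the highest in both genotypes. The exception was GSTF7, a glutathione transferase, which was higher in ntrc in all 3 pairs (0.58). The median ranged from -0.82 without library 1 of ntrc to -0.16 without library 2 of ntrc, and the part of the library number in it was not tested.

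**Figure D5:**
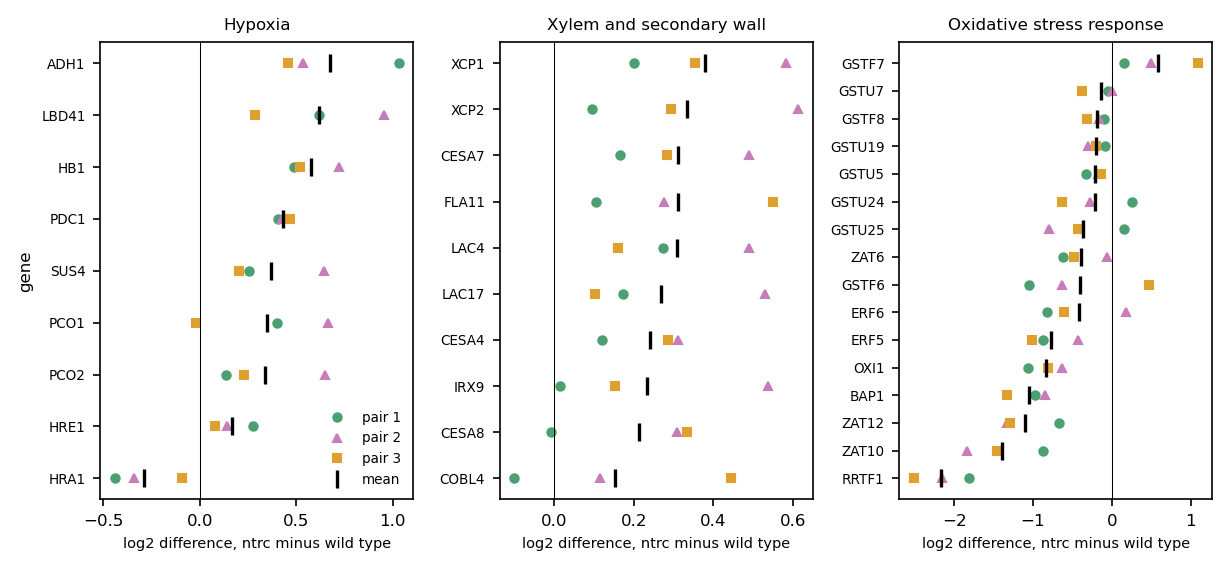
Differences in log2 level, ntrc minus wild type, within pairs 1 to 3 (coloured symbols) and their mean (black bars), for all tested members of the hypoxia, xylem and secondary wall, and oxidative stress response lists. Points right of the line at 0 are higher in ntrc: nearly all hypoxia and xylem members lie there, and nearly all oxidative stress members lie left of it.

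Heat shock genes had lower means for 11 of 12, with a median of -0.21 (-0.38, -0.21 and -0.24 in the pairs). By limma none was called, and 4 had an unadjusted p below 0.05 with the block. HSP90.1, a heat-inducible chaperone, had 4.02, 3.48 and 3.5 in ntrc, against 4.97, 3.89 and 3.93 in wild type (-0.59; limma adjusted p with the block 0.114). Wild type library 1 stood apart here: without it the median was -0.01. A wider list of small heat-shock and DnaJ proteins, taken by annotation text, was lower for 83 of 149, with a median of -0.02. Of that list AT2G42750 fell with the block, and 11.4% had an unadjusted p below 0.05 by limma with the block. Genes of mitochondrial stress were lower for 7 of 10, with DIC2 called and a median of -0.09 (0.09, -0.24 and -0.19 in the pairs). Without library 3 of ntrc that median was 0.01. Of the 12 ethylene genes 5 were lower, with ACS6 called and a median of 0.06.

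Auxin-induced SAUR genes were higher in ntrc for 39 of 48 tested, 24 of them in all 3 pairs and 4 lower in all 3, with a median of 0.29 (0.34, 0.20 and 0.38 in the pairs). With the block 2 of them rose and 26 (54.2%) had an unadjusted p below 0.05. AT2G46690 had 4.51, 5.17 and 5.24 in ntrc, against 3.54, 4.43 and 4.66 in wild type (limma adjusted p with the block 0.0337). The median was 0.15 without library 1 of wild type and 0.39 without library 2 of wild type. Among other hormone lists, medians were 0.13 for gibberellins, 0.14 for abscisic acid and water stress, 0.12 for cytokinins and 0.06 for brassinosteroids. They shrank to 0.02 for gibberellins without library 1 of wild type, to 0.08 and 0.05 for abscisic acid and cytokinins without library 2 of wild type, and to 0.02 for brassinosteroids without library 2 of ntrc. No member was called by limma, and 3, 6, 1 and 0 had an unadjusted p below 0.05 with the block. GASA6, a gibberellin-induced peptide, differed by 0.50 (limma adjusted p with the block 0.0889), and ABI5, an abscisic acid transcription factor, by 0.44 (0.131).

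Class III peroxidases were higher in ntrc for 39 of 49, 22 of them in all 3 pairs and 5 lower in all 3, with a median of 0.23 (0.32, 0.26 and 0.12 in the pairs). Without library 1 of wild type it was 0.11, and without library 3 of wild type 0.38. AT5G19890 rose with the block. Pectin-modifying enzymes were higher for 59 of 88 with a median of 0.08, and lipid transfer proteins for 43 of 62 with a median of 0.09; EARLI1, one of the latter, differed by 0.58 (limma adjusted p with the block 0.0779). Expansins were evenly divided, 12 higher and 11 lower, with EXPA2 called. Root hair genes were higher for 14 of 18, with a median of 0.20, but the pairs gave 0.51, 0.27 and -0.09, and without library 1 of wild type the median was 0.08. Their lead, RHS18, a root hair peroxidase, had 2.94, 2.97 and 2.91 in ntrc, against 2.36, 2.21 and 2.5 in wild type (0.58; limma adjusted p with the block 0.0885).

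Nitrate and ammonium genes had higher means for 13 of 21, 11 of them in all 3 pairs and 2 lower in all 3, with a median of 0.14 (0.28, 0.12 and 0.08 in the pairs) and of 0.08 without library 1 of wild type. None was called by limma, and 8 had an unadjusted p below 0.05 with the block. NRT1.1, the nitrate transporter and sensor, had 5.58, 5.66 and 6.22 in ntrc, against 4.91, 5.09 and 5.77 in wild type, with overlapping genotypes (0.57; limma adjusted p with the block 0.0551). UPM1, which makes the siroheme cofactor of nitrite reductase, had 6.14, 6.22 and 6.35 in ntrc, against 5.77, 5.77 and 5.78 in wild type, with no overlap (0.46; 0.0841). The nitrate-responsive regulators LBD39 and HRS1 differed by 0.50 and 0.53. NRT1.5, described above, was not on this list.

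Aquaporins, the water channels, were higher for 18 of 19, with a median of 0.16, but 0.33, 0.21 and -0.01 in the pairs, and without library 1 of wild type the median was -0.04. TIP2;2, a channel of the vacuolar membrane, had 6.80, 7.52 and 7.67 in ntrc, against 6.22, 6.84 and 7.46 in wild type (0.49; limma adjusted p with the block 0.135). Histones were higher for 35 of 39, 20 of them in all 3 pairs, with a small median of 0.10; HIS1-3 rose with the block, and without library 1 of wild type the median was 0.01. Sugar starvation genes were higher for 15 of 21 with a median of 0.18, and 0.23, 0.26 and -0.02 in the pairs, and without library 2 of ntrc the median was 0.04.

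Lists of organelle biogenesis had negative medians of small size. Pentatricopeptide proteins, which process RNA in plastids and mitochondria, were lower in ntrc for 128 of 188, 40 of them in all 3 pairs against 10 higher in all 3, with a median of -0.05 (-0.06, -0.13 and 0.04 in the pairs). Without library 2 of wild type that median was -0.02. Plastid transcription genes were lower for 16 of 19 (median -0.08), plastid protein import and proteolysis genes for 19 of 23 (-0.11) and photorespiration genes for 14 of 15 (-0.09). In pair 3 the medians of the plastid transcription and import lists were above 0, at 0.08 and 0.04. None of these genes was called by limma. With the block, 2 lower and 2 higher pentatricopeptide genes had an unadjusted p below 0.05. So did 1 lower and 1 higher plastid transcription gene, the higher one being SIGA (0.31). In the import and photorespiration lists 1 and 2 genes had such a p, all lower in ntrc. The photorespiratory lead was GLDP1, a subunit of glycine decarboxylase, with 8.94, 8.85 and 8.77 in ntrc, against 9.22, 9.33 and 8.86 in wild type (-0.28; limma adjusted p with the block 0.37). Without library 2 of wild type the photorespiration median was 0.01, and those of the plastid transcription and import lists were both -0.03. TOC159, the main preprotein receptor of the outer envelope, differed by -0.21 and did not overlap between genotypes.

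Resistance proteins of the NLR class, intracellular immune receptors, were lower for 79 of 96, 31 of them in all 3 pairs against 4 higher in all 3, with a median of -0.09 (-0.18, -0.07 and -0.03 in the pairs). Without library 1 of wild type the median was -0.01. None was called by limma, and 10 had an unadjusted p below 0.05 with the block. AT1G58602 came nearest, with 4.05, 4.16 and 3.77 in ntrc, against 4.64, 4.66 and 4.13 in wild type (-0.48; limma adjusted p with the block 0.0779). Many NLR genes have close relatives, among which reads may be divided.

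Large groups of basic cell functions had medians close to 0. Cytosolic ribosomal proteins had a median of 0.01 over 233 genes, and 9.87% of them kept a direction over 3 pairs, below the 33.9% of all genes; their pair medians were 0.15, -0.12 and -0.03. Mitochondrial respiratory complexes (52 genes) had a median of -0.01 and the proteasome (27 genes) of -0.03. No member of these 3 lists was called by limma, and 2, 1 and 0 had an unadjusted p below 0.05 with the block. MYB factors were higher for 66 of 117 with MYB77 falling, cytochrome P450s for 72 of 122 and glutathione transferases for 16 of 36 with GSTF2 rising. Long non-coding RNAs were higher for 204 of 394, with a median of 0.01, and 1 rose and 4 fell with the block.

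Markers of other cell types were listed too. Genes of dividing cells had a median of 0.02 (14 tested), shoot epidermis and cuticle of 0.04 (16), endodermis and suberin of 0.07 (12) and the stomatal lineage of 0.10 (9), and none of their members was called by limma, with 3, 3, 1 and 1 at an unadjusted p below 0.05 with the block. KNOLLE, which marks cytokinesis, differed by 0.26, and the stomatal factor FAMA by 0.27, both with genotypes that did not overlap. Stomatal lineage genes were higher in ntrc for 7 of 9. The 1 stomatal gene at an unadjusted p below 0.05 was EPF2, which was lower in ntrc (-0.27). Endodermis and suberin genes were higher in ntrc for 9 of 12. The lowest of them was ESB1, needed for the Casparian strip of the endodermis. It had 2.57, 2.77 and 2.91 in ntrc, against 3.51, 3.77 and 3.14 in wild type (-0.73, limma adjusted p with the block 0.16). Of 8 seed reserve genes 4 were tested, and all 4 were higher in ntrc, with a median of 0.28 (0.05, 0.16 and 1.11 in the pairs) that was 0.15 without library 3 of ntrc. None was called by limma, and 2 had an unadjusted p below 0.05 with the block; OLEO2, an oil body protein, had 2.67, 3.27 and 3.84 in ntrc, against 2.36, 2.27 and 2.3 in wild type (0.95; limma adjusted p with the block 0.229).

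Several large differences were not called, and the loci given here were chosen after their values were seen. AT1G07887 had the largest negative difference, with 0.17, 1.36 and 0.06 in ntrc, against 3.64, 3.78 and 4.89 in wild type (-3.58). AT2G07015 had 5.17, 4.86 and 4.55 in ntrc, against 4.05, 0.00 and 0.00 in wild type. AT1G09927 had 9.28, 8.41 and 0.00 in ntrc, against 9.16, 8.68 and 8.41 in wild type, and AT5G01210 had 3.73, 5.17 and 3.16 in ntrc, against 3.53, 0.00 and 0.00 in wild type. A listed 0 beside such levels may be a failed estimate, so no fold change is read from the last 3 loci.

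Transcripts encoded in the organelles were also in the table, recognised by their locus identifiers. Of the 68 plastid loci tested, 49 were higher in ntrc, with a median difference of 0.22 (0.10, 0.09 and 0.44 in the pairs), and of the 10 mitochondrial loci 8 were, with a median of 0.22 (0.53, 0.04 and 0.14). None was called by limma in either fit, and 22 plastid and 3 mitochondrial loci had an unadjusted p below 0.05 with the block. The median plastid level was 2.16, 2.45 and 2.45 in ntrc, against 1.93, 2.26 and 2.11 in wild type. The libraries came from an mRNA kit, per the labels' protocols, and its part in these values was not tested.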

How the data were processed

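Expression was measured by RNA sequencing of whole seedlings, 3 ntrc and 3 wild type libraries, with a stranded mRNA kit per the labels' protocols. The authors deposited 1 table of loci by libraries on a log2 scale. The unit is FPKM per the authors' name for the data, and the values are read as log2(FPKM + 1) because they start at 0; the base and the pseudocount are not stated. FastQC, HISAT2, StringTie and the build TAIR10 are named, without versions, in the submitters' processing notes. The deposited values gave each seedling library 1 upper quartile, and were not scaled further. The design had planned to take this logarithm of FPKM, which the authors had already done.

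Genes that reached 1 FPKM in 3 or more of the 6 libraries were tested two-sided with limma 3.58.1 in R 4.3.3 (mean trend, robust moderation), with Benjamini-Hochberg adjustment over 18818 genes and a threshold of 0.05. The model had no block, and a second one had the library number as a block. The pairing comes from the values, not the labels: deviations from the group means correlated at 0.506, 0.406 and 0.278 for equal numbers and at -0.388 to 0.115 for different ones. It was read from the values that the blocked model then tests. Both models were tested on simulated data with planted changes. P-values measure only the spread between these libraries.

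The genes, lists and alternatives were chosen with earlier results of these data known. The naming rule took all genes called without the block. Of those called with it in 1 direction over 3 pairs, it took the 15 rising and 15 falling with the largest change. In each list it took every called member and the one with the smallest p with the block. Not every gene of smallest p is named in the text, and in some lists another member is shown. Others were named after their values were seen, among them the remaining called genes and further members of lists. Loci were matched by identifier to TAIR10.1 RefSeq names (32548 of 32833), and no coordinates were used. Of 715 entries in the hand-made lists, 673 matched by symbol, 41 by locus alone, and 1 was not in the table. Of the lists by annotation text 2 were dropped, 1 since its text pattern caught unrelated proteins (181 of 356 members) and 1 since it found only 8 genes of a large family. No test was run on a list. Adult ntrc libraries were scaled separately and entered no test.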

Additional observations from a re-analysis of the deposited data

How the results depend on the processing

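Without the block, 1 gene rose and 4 fell in ntrc, and with the library number as a replicate block the counts were 30 and 43. A pseudocount of 0.1 gave 0 rising and 2 falling genes. Leaving out single libraries gave 0 to 2 rising and 1 to 22 falling genes, with 22 without library 1 of ntrc and 1 without each of the wild type libraries. With the block, leaving out pairs gave 6 to 28 rising and 23 to 51 falling genes, the lowest counts without pair 2. Quantile normalization, median ratio scaling, other filters on low values and a fit without trend or robust moderation moved the counts by no more than 1.5 times, as did scaling and pseudocount in the blocked fit. Of the 82 genes given by the naming rule, 31 passed with the block that did not pass without it, and it changed no other call among them. None of these 82 changed direction at a setting where it was called there or in the fit without the block. Changes of direction in genes called in neither fit were not counted, nor were genes that failed a setting's filter. Of all called genes outside the lists set aside, 58 passed with the block alone. With a pseudocount of 0.1 in the blocked fit, 17 of the 22 rising and 32 of the 41 falling genes remained called. Of 1177 list medians at other settings, 122 moved by more than the spread of the pairs. That total takes in the lists set aside and dropped. Blocked fits on all libraries repeat the medians of the unblocked fits, so the share that moved has little meaning. Scaling turned the sign of 7 medians, all close to 0, and shifted the median of all genes by at most 0.0054. Depth is unknown, so low genes such as AT4G05275, listed at 0 in ntrc, have no counting error here.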

Other observations

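The adult ntrc libraries of the series, from young rosette leaves, have no wild type beside them here and were scaled apart from the seedlings, so their values stand alone. AT1G75945 had 3.35, 3.45 and 3.31 in adult ntrc leaves on their own log2 scale, and NTRC had 4.1, 4.01 and 4.1. AT4G05275 was listed at 0 in all 3 adult libraries, and NTMC2T6.2 had 0.14, 0.18 and 0.19. Several genes that rose in ntrc seedlings were listed at 0 in adult ntrc leaves, among them EXPA2, PGAZAT, AT5G19890, AT5G46960, AT4G01390 and AT5G10580. TGG2 and LOX2 were high there, with 8.38, 8.41 and 8.55 for TGG2 and 6.07, 8.28 and 7.79 for LOX2.

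Metabolic lists not described above had small medians. Aliphatic glucosinolate genes were higher in ntrc for 13 of 19 with a median of 0.09, but -0.25 and 0.43 in pairs 2 and 3. MAM3, which elongates the methionine side chain of these compounds, had 4.03, 3.76 and 4.3 in ntrc, against 3.46, 2.36 and 3.53 in wild type, with a difference of 0.92 and genotypes that did not overlap (limma adjusted p with the block 0.106). Phosphate starvation genes were lower for 12 of 16 with a median of -0.14, and sulfate and sulfur starvation genes for 9 of 15 with a median of -0.05. Lignin and phenylpropanoid genes were divided 7 and 7, with a median of -0.06, and fatty acid synthesis genes were lower for 13 of 19, with a median of -0.03. No member of these lists was called by limma, and 2, 4, 3, 5 and 2 of them had an unadjusted p below 0.05 with the block.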
